A study of Mus musculus with 36 samples.

Results

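The genes described here are 8 genes of antigen presentation by the major histocompatibility complex class II (MHC class II) pathway, taken by name from a liver RNA table that lists 49315 genes. They are H2-Aa, H2-Ab1 and H2-Eb1, which encode chains of the peptide-presenting molecules, Cd74, the invariant chain, H2-DMa and H2-DMb1, the subunits of the peptide-editing molecule H2-DM, Ciita, the class II transactivator, and Cd86, a costimulatory ligand. All 8 passed the filter on low values and are described in each of the 9 groups of 4 libraries.

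The series asked how a change of tryptophan (W) to phenylalanine (F) at residue 441 of LXRalpha, an oxysterol-activated nuclear receptor, alters the liver. Polyadenylated RNA was sequenced from male mice of 11 to 12 weeks of age. Their genotypes were W/W (homozygous controls), W/F (heterozygous) and F/F (homozygous mutants), made by genome editing. The chow groups received no gavage that the labels record and came from an independent cohort, so cohort, gavage and diet cannot be told apart in any comparison of vehicle with chow. The vehicle and T0901317 groups ate Teklad TD.96121, a diet that promotes steatohepatitis (MASH), for 4 weeks and received vehicle or 10 mg/kg of T0901317, a synthetic LXR agonist, by daily gavage during the last 2 weeks. The labels do not say that each library is 1 mouse or how libraries were batched, so p-values measure the spread between these libraries. A substitution of 1 residue cannot be read from gene-level values, so genotype rests on the labels. The labels name no cell type to which the edit is restricted.

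Class II molecules present peptides from the endosomal pathway to CD4+ T cells. The alpha and beta chains assemble with the invariant chain, which is cut by cathepsin S and other proteases until a short fragment is left in the groove, and H2-DM then exchanges that fragment for antigenic peptide. Transcription of these genes is switched on by CIITA, which does not bind DNA itself but joins a complex of RFX, CREB and NF-Y on conserved promoter boxes, and interferon-gamma induces Ciita, in part through IRF1. In liver the pathway is known from dendritic cells, B cells, Kupffer cells and recruited macrophages rather than from resting hepatocytes.

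The promoter boxes through which CIITA is known to act are shown here, since they link the chains and H2-DM. RefSeq promoter windows (build GRCm38.p6, 250 bases before to 50 after a gene's start) were matched for 4 of the 8 genes, and H2-Ab1, Cd74, Ciita and Cd86 had no entry. In the stretches below, written 5′ to 3′ on the gene's strand, capitals mark an X box core (CTNGNAAC) followed by a Y box (GATTGG).
H2-Aa, chr17:34287863-34287911, minus strand: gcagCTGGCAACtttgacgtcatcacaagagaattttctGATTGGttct
H2-Eb1, chr17:34305769-34305816, plus strand: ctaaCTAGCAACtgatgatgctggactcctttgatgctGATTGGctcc
H2-DMb1, chr17:34153090-34153138, plus strand: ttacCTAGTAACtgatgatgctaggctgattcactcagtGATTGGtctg
H2-Ob, chr17:34238811-34238856, plus strand: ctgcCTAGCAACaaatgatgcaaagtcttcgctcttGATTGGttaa

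The X core began 84 bases before the start of H2-Aa, 94 before H2-Eb1 and 97 before H2-DMb1. The gap between the boxes was 27, 26 and 27 bases in these genes. H2-Ob, which encodes a chain of the H2-DM inhibitor H2-O and is no member, had the pair with a gap of 24 bases. The letters of the boxes and the allowed gap of 16 to 40 bases were set after these sequences had been read. On either strand, the X core was in 13.2% of all 32851 windows and the Y box in 16.1%. The pair in this order was in 0.107% of windows. Neither of the windows of H2-DMa held the X core, and 1 of the 4 windowed genes among the other class II genes listed (H2-Eb2, H2-Oa, H2-Ob and H2-DMb2) held the pair. A match describes letters only.

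Values are TPM (transcripts per 1000000 transcripts), which are corrected for gene length, so levels of different genes can be set side by side. The depth recovered from the low values was 18010000 to 35680000 reads per library. This left 8 to 285 reads for Cd86 in a library, 10 to 1116 for H2-DMb1, 13 to 1862 for H2-DMa and 22 to 1239 for Ciita, against 446 to 37585 for Cd74, so these 4 genes carry more counting error than the chains and Cd74 in the libraries where they are low. Differences were tested on log2(TPM + 1) in 1 limma fit of all 36 libraries, and a gene was called when its Benjamini-Hochberg adjusted p over 16638 genes was under 0.05. Fold changes are on that scale, which understates changes of low genes such as Ciita. The median of all genes tested itself moved between groups, by 0.70 in F/F against W/W on vehicle and by -0.49 with T0901317 in W/F, so counts are also given on TPM rescaled by the median of ratios. Comparisons that share a group are not independent of each other. Replicate 2 of W/F on T0901317 and replicate 4 of W/W on vehicle stood apart from their groups in the members, and results that rest on them are given with and without them. Since the fit pools the spread of each gene over all groups, they also widen the intervals of comparisons without their groups.

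The pathway was lowest in W/F livers on chow and highest in W/F livers on the MASH diet with vehicle or in F/F livers given T0901317. The ratio of the highest to the lowest group mean ran from 8.92 for Cd86 to 22.0 for Cd74. In all 8 genes the medians of the 3 W/W groups and of W/F chow lay below those of W/F vehicle and of both MASH diet F/F groups.

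H2-Ab1 encodes the beta chain of I-A (GRCm38 chromosome 17, 34257689 to 34269419, plus strand). In W/W its TPM were 34.9, 28.7, 14.0 and 57.8 on chow, 26.4, 32.2, 52.6 and 123 on vehicle, and 22.7, 71.5, 53.6 and 43.7 on T0901317. In W/F they were 10.2, 13.2, 23.8 and 12.7 on chow, 296, 257, 258 and 231 on vehicle, and 42.2, 421, 56.8 and 31.5 on T0901317. In F/F they were 138, 103, 116 and 94.0 on chow, 195, 162, 128 and 137 on vehicle, and 445, 276, 187 and 226 on T0901317. The 3 W/W groups overlapped, the W/F vehicle libraries stood above every W/W library and every W/F chow library, and replicate 2 of W/F on T0901317 stood alone among its group.

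H2-Aa, the alpha chain of I-A (chromosome 17, 34282744 to 34287823, minus strand), and H2-Eb1, the beta chain of I-E (chromosome 17, 34305867 to 34316674, plus strand), followed the same order of levels with small exceptions. H2-Aa ran from 9.02 to 21.1 TPM in W/F chow and from 202 to 271 TPM in W/F vehicle. H2-Eb1 ran from 15.1 to 33.6 TPM in W/F chow and from 328 to 463 TPM in W/F vehicle. The I-E alpha chain gene was not matched under its symbol, and the pseudogene H2-Ea-ps is listed at 0. Within libraries the ratio of H2-Aa to H2-Ab1 stayed between 0.581 and 0.973, a narrow range beside that of their levels. The ratio still differed between groups, at 0.581 to 0.746 in W/W chow and 0.874 to 0.964 in W/F vehicle, without overlap.

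Cd74 encodes the invariant chain, the chaperone of newly made class II molecules, and was the most abundant member. In W/W its TPM were 78.5, 77.4, 36.5 and 142 on chow, 78.1, 84.6, 149 and 323 on vehicle, and 62.6, 228, 135 and 111 on T0901317. In W/F they were 33.1, 35.4, 73.0 and 40.0 on chow, 975, 756, 792 and 793 on vehicle, and 113, 1372, 162 and 98.2 on T0901317. In F/F they were 420, 288, 346 and 308 on chow, 1053, 597, 558 and 548 on vehicle, and 1639, 983, 647 and 732 on T0901317. The F/F chow libraries lay above every W/W chow library, and the F/F groups on vehicle and T0901317 overlapped.

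H2-DMa (chromosome 17, 34119541 to 34139101, plus strand) and H2-DMb1 (chromosome 17, 34153072 to 34160230, plus strand) were below the chains in every library. H2-DMa ran from 1.39 to 2.61 TPM in W/F chow and from 25.7 to 30.4 TPM in W/F vehicle. H2-DMb1 ran from 0.726 to 3.82 TPM in W/F chow and from 32.6 to 39.2 TPM in W/F vehicle. Both are uncertain in absolute level. Of the 50-base words of H2-DMb1, 22.7% also occur in other genes, against 8.43% for H2-DMa, and exons of H2-DMa overlap Brd2 on the opposite strand by 360 bases, while the strand setting of the counting is not given in the sources used here.

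Ciita (chromosome 16, 10480059 to 10528418, plus strand) was the least abundant member together with Cd86, and its exons overlap Dexi on the opposite strand by 329 bases. In W/W its TPM were 0.473, 0.677, 0.365 and 0.901 on chow, 0.255, 0.520, 0.613 and 2.69 on vehicle, and 0.443, 2.20, 0.768 and 0.703 on T0901317. In W/F they were 0.319, 0.269, 0.860 and 0.510 on chow, 5.36, 5.62, 4.74 and 4.18 on vehicle, and 0.539, 10.9, 1.03 and 0.670 on T0901317. In F/F they were 3.11, 1.98, 2.66 and 1.42 on chow, 2.75, 3.55, 2.58 and 2.76 on vehicle, and 9.51, 5.13, 4.16 and 3.45 on T0901317. The transactivator was highest in the libraries where the chains were highest, and the F/F libraries on vehicle all lay below those of W/F on vehicle.

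Cd86 (chromosome 16, 36603869 to 36666081, minus strand), whose product binds CD28 on T cells, is not a class II gene and followed a somewhat different order. In W/W its TPM were 0.772, 1.12, 1.01 and 1.52 on chow, 1.44, 1.24, 1.54 and 2.82 on vehicle, and 2.25, 3.34, 2.63 and 2.62 on T0901317. In W/F they were 0.262, 0.515, 0.665 and 1.02 on chow, 4.71, 5.65, 6.80 and 4.80 on vehicle, and 1.38, 6.58, 2.01 and 1.61 on T0901317. In F/F they were 1.89, 1.94, 1.53 and 1.96 on chow, 5.53, 7.58, 2.59 and 4.18 on vehicle, and 5.70, 3.68, 3.16 and 3.62 on T0901317. F/F chow, which stood above most W/W libraries for the chains, stood below all W/W libraries on T0901317 for Cd86.

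**Figure D1:**
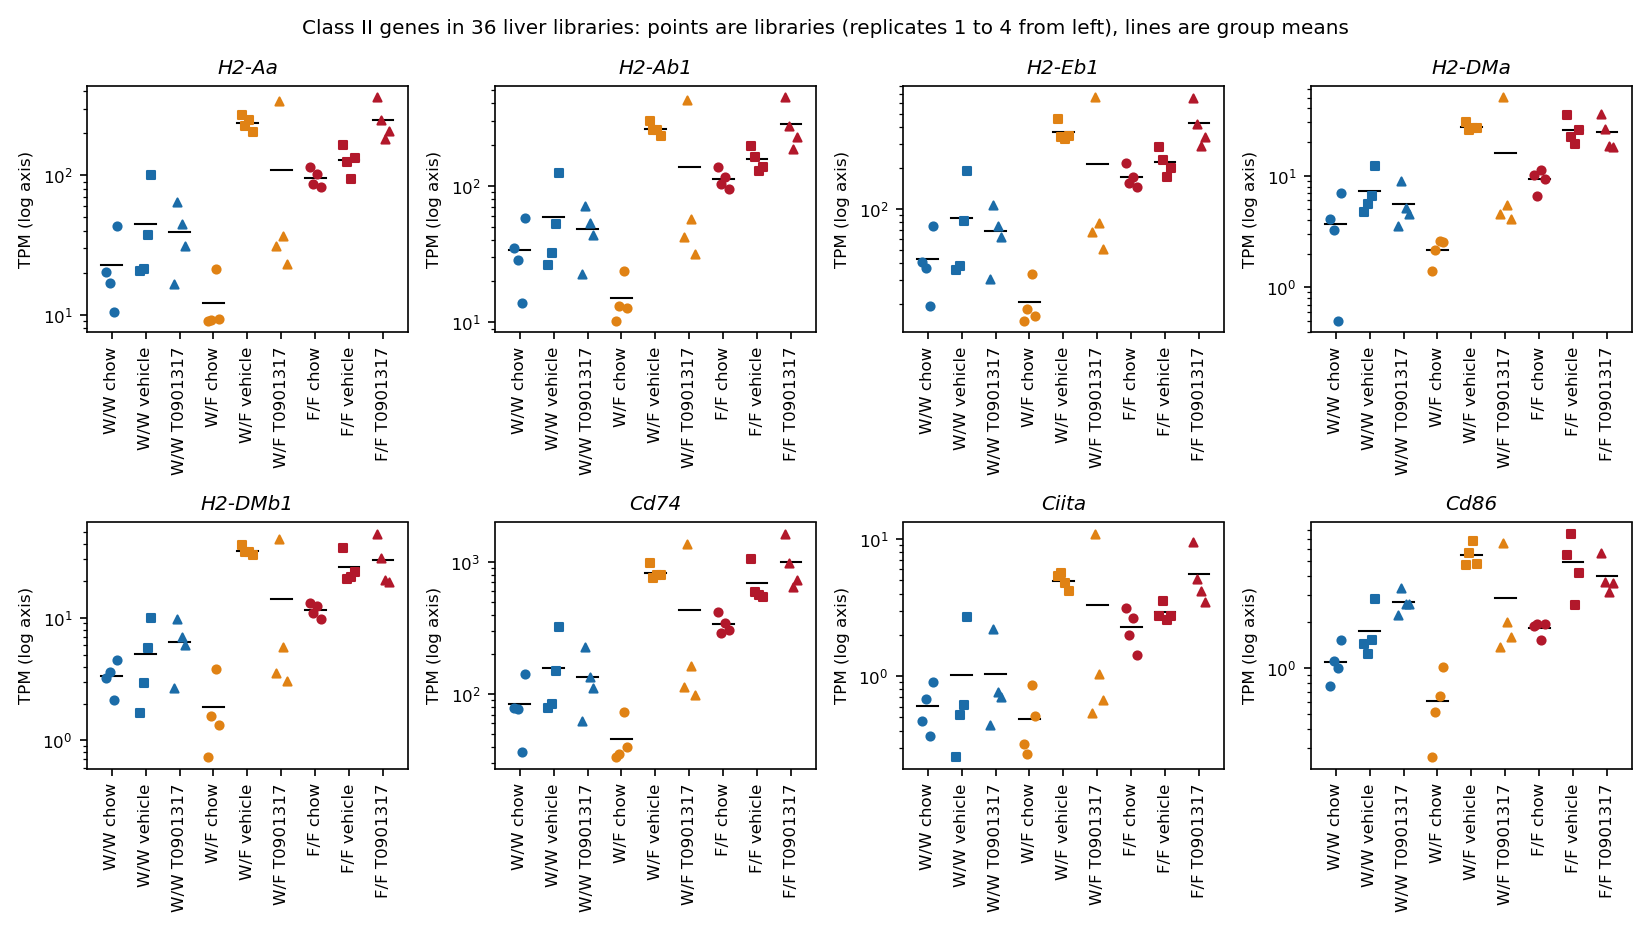
TPM (log axis) of the 8 genes in 36 libraries, with genotype by colour, treatment by symbol and the group mean as a line. W/F vehicle and the F/F groups on the MASH diet sit high, and in W/F on T0901317 replicate 2 (H2-Ab1 421 TPM) sits far above the other libraries of its group.

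The 8 genes moved together across libraries. Over the 36 libraries, on log2(TPM + 1), Pearson's r among the 3 chains and Cd74 was 0.991 to 0.998. With these 4 genes Ciita had r of 0.946 to 0.952 and Cd86 r of 0.867 to 0.881. After the group means were removed, r of H2-Ab1 was 0.988 with Cd74, 0.913 with Ciita and 0.774 with Cd86. These values are descriptions, since the points share group, depth and library composition. Among 11196 other genes with at least 5 TPM in a group, those most like H2-Ab1 were Fgd2 (r of 0.926), Cd52, H2-M2, Aif1 and C1qc. Those most like Ciita were Gbp8 (r of 0.928), H2-M2, Fgd2, Epsti1 and Pilrb1. Those most like Cd86 were Themis2 (r of 0.964), Fcgr4, Fgd2, AB124611 and Sdc3.

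On the MASH diet with vehicle, W/F livers held far more class II RNA than W/W livers. All 8 genes were called higher, with no overlap between the libraries, where 61.6% of all genes tested were called higher. The members' median log2 fold change was 2.40 and that of all genes 0.52. On rescaled TPM all 8 were again called, against 27.6% of all genes, with a median of 1.74. The largest differences were in H2-DMb1, by 2.78 (SE 0.49, adjusted p 1.24e-05), and H2-Aa, by 2.68 (SE 0.55, adjusted p 8.89e-05), and Ciita differed by 1.70 (SE 0.41, adjusted p 0.000487). Bulk RNA does not tell more class II-bearing cells from more RNA per cell. On chow no member was called between W/F and W/W, where 0.487% of all genes were called in either direction. H2-Ab1 was nearest to a call there, at -1.03 (95% interval -2.10 to 0.05, unadjusted p 0.0602, adjusted p 0.913). No member had an unadjusted p under 0.05 in that comparison, and on rescaled TPM H2-Ab1 had 0.0416 (adjusted p 0.667).

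In W/F the pathway was far higher on the MASH diet with vehicle than on chow. All 8 genes were called higher than on chow in W/F, where 52.4% of all genes were called higher, with a members' median of 3.93 against 0.39 for all genes. On rescaled TPM all 8 were called, against 27.9% of all genes. H2-Aa differed by 4.26 (SE 0.55, adjusted p 9.67e-08), Cd74 by 4.23 (SE 0.55, adjusted p 1.03e-07) and Cd86 by 2.02 (SE 0.26, adjusted p 8.11e-08). In W/W no member was called for the same diet, where 12.9% of all genes were called in either direction, and the members' median was 0.74. H2-DMa in W/W had the lowest unadjusted p, 0.0536 (adjusted p 0.202). On rescaled TPM H2-DMa had 0.0231 (adjusted p 0.102), and again no member was called in W/W. In F/F, H2-DMa at 1.35 (SE 0.48, adjusted p 0.018) and Cd86 at 1.01 (SE 0.26, adjusted p 0.00145) were called higher, where 46.5% of all genes were called higher. On rescaled TPM the call of Cd86 was the 1 that remained in F/F, against 25.7% of all genes.

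The difference of the diet response between W/F and W/W was itself called for all 8 genes. It ran from 1.65 in Cd86 (SE 0.37, adjusted p 0.000415) to 3.47 in H2-DMb1 (SE 0.70, adjusted p 0.000138), where 49.5% of all genes were called higher. On rescaled TPM it was called for all 8 again, against 21% of all genes. Between F/F and W/W no member's diet response was called to differ, where 46% of all genes were called in either direction. That interval was wide, at -1.73 to 1.30 for H2-Ab1, and no member had an unadjusted p under 0.05.

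F/F livers held more class II RNA than W/W livers already on chow. There 7 of the 8 genes, all but Cd86, were called higher, where 43% of all genes were called higher, and the members' median was 1.70 against 0.29 for all genes. H2-Aa differed by 2.20 (SE 0.55, adjusted p 0.00188), Cd74 by 2.15 (SE 0.55, adjusted p 0.00218) and Ciita by 1.02 (SE 0.41, adjusted p 0.0391). Cd86 differed by 0.43 without overlap of the libraries (95% interval -0.09 to 0.96, adjusted p 0.17). On rescaled TPM the chains and Cd74 were called, 4 in all, against 15.9% of all genes. Against W/F on chow, all 8 were called higher in F/F, where 37.9% of all genes were, and on rescaled TPM 7 were, against 16.5%.

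On vehicle all 8 genes were called higher in F/F than in W/W while 69.3% of all genes were called higher there. On rescaled TPM H2-DMb1 at 1.55 and Cd74 at 1.44 were called, 2 in all, against 31% of all genes. Replicate 4 of W/W on vehicle was the highest of its group in all 8 genes, with 123 TPM of H2-Ab1 and 2.69 TPM of Ciita. It was also highest in the summed markers of each leukocyte list. These were 282 TPM for monocytes and macrophages against 131 to 145 in the other 3, and 50.7 for pan-leukocyte markers against 22.1 to 27.3. For T cells they were 11.3 against 3.27 to 4.27, for dendritic cells 13.6 against 6.39 to 8.03 and for B cells 37.6 against 10.5 to 11.7. Kupffer cell markers summed to 398 against 317 to 337. Ighm, the immunoglobulin mu chain among the B cell markers, was at 30.5 TPM against 4.70 to 9.08. The part of these cells was not tested. Without replicate 4 of W/W on vehicle, on rescaled TPM, 7 genes were called higher in F/F than in W/W. These were all but Ciita at 0.93 (adjusted p 0.0514), an alternative chosen after seeing the data. W/F against W/W on vehicle gave 8 of 8 without that library on either scale.

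With T0901317, 7 genes were called higher in F/F than in W/W, all but Cd86, where 56.3% of all genes were called higher. The same 7 were called on rescaled TPM, against 24.2%. Cd74 differed by 2.94 (SE 0.55, adjusted p 3.63e-05) and Ciita by 1.68 (SE 0.41, adjusted p 0.000658), and Cd86 by 0.43 (95% interval -0.10 to 0.95, adjusted p 0.153). Between W/F and W/W on T0901317 no member was called, where 9.88% of all genes were called in either direction. There the log2 fold change of H2-Ab1 was 0.76 with all libraries and -0.06 without replicate 2 of W/F. The unadjusted p was 0.112 or more for all 8 genes.

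Of F/F against W/F, on vehicle no member was called, where 21.3% of all genes were called in either direction. H2-Aa, H2-Ab1, H2-Eb1 and Ciita were nevertheless lower in F/F without overlap between the libraries, at -0.89, -0.75, -0.73 and -0.61 (adjusted p 0.261, 0.327, 0.359 and 0.298). When only these 2 groups were fitted, those 4 genes were called lower (adjusted p 0.00755, 0.00755, 0.0164 and 0.0113). The share of all genes called in fits of only 2 groups was not recorded, so such calls have no background beside them. In the same comparison Csf1r, the receptor for the macrophage growth factor M-CSF, differed by -0.18 (adjusted p 0.726), and Ptprc, the pan-leukocyte CD45, by 0.10 (adjusted p 0.811). With T0901317, 7 genes were called higher in F/F than in W/F, all but Cd86, where 58.5% of all genes were called higher, and 4 on rescaled TPM, against 21.5%. When only these 2 groups were fitted, the call of H2-Aa remained (adjusted p 0.0466) and the other 7 genes had adjusted p of 0.0561 to 0.247. The libraries of the groups overlapped because of replicate 2 of W/F, without which all 8 were called, from 0.90 in Cd86 to 2.98 in H2-Aa. On rescaled TPM without that library, an alternative chosen after seeing the data, all but Cd86 (0.48, adjusted p 0.0515) were called.

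**Figure D2:**
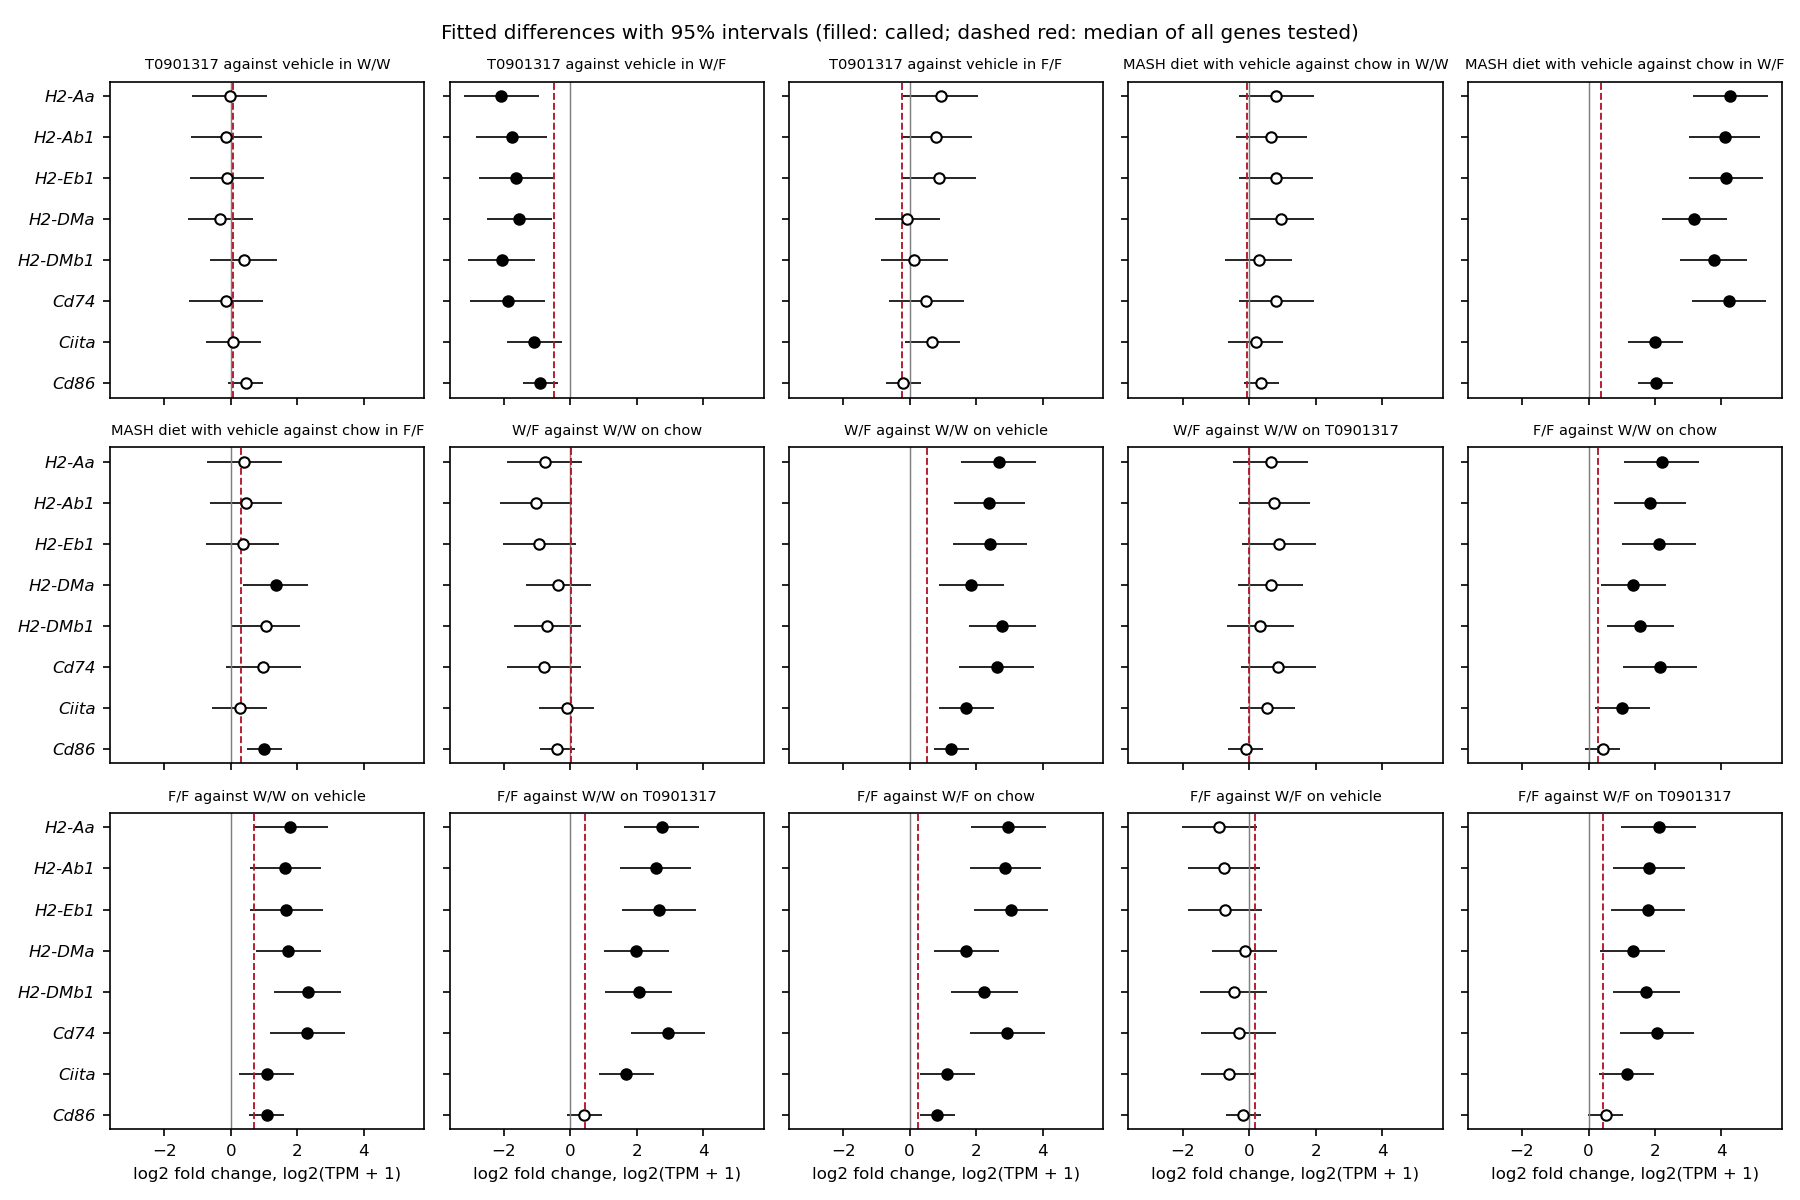
Fitted log2 fold changes on log2(TPM + 1) with 95% intervals for the 8 genes in 15 comparisons of groups, filled where called, with the median of all genes tested as a dashed line. The members lie far right of that line for W/F on the diet (median 3.93 against 0.39), while in F/F with T0901317 they lie on both sides of 0.

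The members were called with T0901317 in W/F but not in W/W or F/F, and the differences between genotypes were tested separately. In W/W no member was called, where 10.8% of all genes were called in either direction, and the members' median was -0.07. The smallest unadjusted p in W/W was 0.0916, for Cd86 at 0.45. In W/F all 8 genes fell, where 59.3% of all genes were called lower, and the members' median was -1.70 against -0.49 for all genes. H2-DMb1 fell by 2.06 on the log2 scale (SE 0.49, adjusted p 0.000552) and H2-Aa by 2.07 (SE 0.55, adjusted p 0.00161). On rescaled TPM, H2-Aa, H2-DMb1 and Cd74 were called, 3 in all, against 27.1% of all genes. When only the W/F groups on vehicle and T0901317 were fitted, H2-Aa (adjusted p 0.0417) and H2-DMb1 (adjusted p 0.0314) were called. The other 6 had adjusted p of 0.0532 to 0.154, and the share of all genes called in that fit was not recorded. In F/F no member was called, where 35.1% of all genes were called in either direction, and no unadjusted p was under 0.05. On rescaled TPM none was called in F/F either, although H2-Aa, H2-Ab1, H2-Eb1 and Ciita, at 1.20, 1.07, 1.16 and 0.83, did not overlap and had unadjusted p of 0.0307, 0.041, 0.0326 and 0.0474 (adjusted p 0.125 to 0.168).

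The size of the fall in W/F depended on replicate 2 of W/F on T0901317. It was the highest library of its group in all 8 genes, at 421 TPM of H2-Ab1 against 31.5 to 56.8 in the other 3 and 10.9 TPM of Ciita against 0.539 to 1.03. Without it, the fall was from 1.28 in Cd86 to 2.94 in H2-Aa on the log2 scale, with adjusted p of 1.53e-05 or less, and all 8 were called on rescaled TPM too. The difference of the T0901317 response between W/F and W/W was called for 3 genes with all libraries, where 53.2% of all genes were called lower. These were H2-Aa at -2.04, H2-DMb1 at -2.44 and Cd86 at -1.35. On rescaled TPM 2 of them, H2-DMb1 and Cd86, were called, against 24% of all genes. Without replicate 2 it was called for 8 on either scale. It was also called for 6 without W/W T0901317 replicate 1 and for 7 without W/W vehicle replicate 4, but for 3 without the latter on rescaled TPM. It was called for 2 without W/F T0901317 replicate 1, 3 or 4, W/W T0901317 replicate 2 or W/W vehicle replicate 1 or 2. No member's response was called to differ between F/F and W/W, where 30.4% of all genes were called in either direction.

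That replicate 2 also stood apart in part of the listed genes of the interferon-gamma axis. Ifng was at 4.78 TPM there and at 0 to 0.359 TPM in the other 3 libraries of the group. Irf1, an interferon-induced transcription factor, was at 84.7 TPM against 17.3 to 26.2. Of genes chosen after their values were seen, Socs1, the feedback inhibitor, was at 13.0 TPM against 0.508 to 1.51, and Tap1, the class I peptide transporter, at 57.1 TPM against 9.08 to 13.9. Ifngr1, Ifngr2 and Jak1 of the axis were lower in every W/F library on T0901317, this one included, than in any on vehicle. The 8 listed axis genes summed to 244 TPM in this library, against 72.7 to 101 in the other 3 and 227 to 273 in W/F on vehicle. Csf1r was at 57.3 TPM against 10.6 to 17.1, below the 84.9 to 122 TPM of W/F on vehicle. Its summed marker levels were 170 TPM for pan-leukocyte markers against 19.8 to 33.1, 14.2 TPM for T cell markers against 2.89 to 3.56, and 28.7 TPM for dendritic cell markers against 6.56 to 8.58. Kupffer cell markers summed to 672 TPM against 220 to 386, and B cell markers to 18.4 TPM against 6.83 to 11.4. The summed class I genes were at 10044 TPM against 4608 to 5257. The part of these cells in its class II level was not tested. This library exceeded every W/F vehicle library in H2-Ab1, Cd74 and Ciita, but not in Csf1r. In F/F on T0901317, replicate 1 was likewise the highest of its group in all 8 members and in Irf1, at 50.2 TPM against 30.6 to 36.1, with Ifng at 0.302 TPM.

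**Figure D3:**
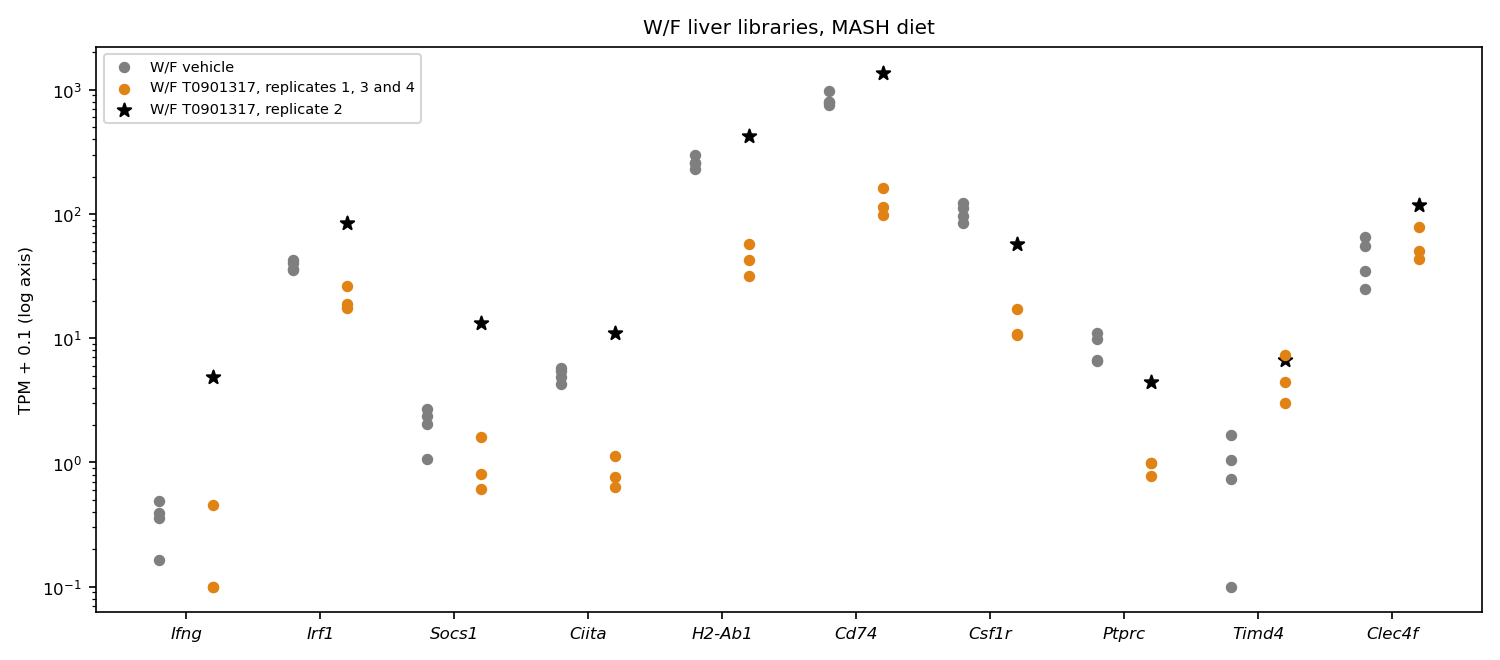
TPM + 0.1 (log axis) of interferon axis genes, members and cell markers in W/F libraries on the MASH diet. The star, replicate 2 on T0901317, is above the vehicle libraries for Ifng (4.78 TPM), Irf1 and Ciita and below them for Csf1r (57.3 TPM).

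In F/F with T0901317 the fitted differences of the chains were above 0 while part of the macrophage markers fell. H2-Aa ran from 182 to 362 TPM with T0901317 and from 94.1 to 163 TPM with vehicle, without overlap, a difference of 0.93 (95% interval -0.20 to 2.06, adjusted p 0.186). H2-Eb1 also did not overlap, at 0.89 (adjusted p 0.197). When only these 2 groups were fitted, H2-Aa, H2-Ab1 and H2-Eb1 were called higher (adjusted p 0.0204, 0.0448 and 0.0315). The share of all genes called higher in that fit was not recorded. H2-DMa at -0.07 and Cd86 at -0.20 were not called (95% intervals -1.05 to 0.91 and -0.73 to 0.33, from the spread pooled over all groups). Neither was called when only these 2 groups were fitted (adjusted p 0.843 and 0.588).

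Of the monocyte and macrophage markers, 5 of 9 tested were called lower in that comparison and none higher, with a median of -0.99, and of the pan-leukocyte markers 4 of 5 were called lower, where 31.2% of all genes were called lower. On rescaled TPM 3 of 9 and 2 of 5 were, against 7.98% of all genes. Cd68, a lysosomal macrophage protein, fell by 1.26 (SE 0.37, adjusted p 0.00947). Ctss, the cathepsin that trims the invariant chain, fell by 1.20 (SE 0.42, adjusted p 0.0286), from 1833, 1746, 1390 and 1872 TPM on vehicle to 890, 748, 564 and 799 TPM, and on rescaled TPM Ctss was not called (-0.93, adjusted p 0.108). Of the Kupffer cell markers, 3 of 7 were called higher on either scale, where 3.95% of all genes were as deposited and 8.32% rescaled, among them Clec4f, a Kupffer cell lectin, which rose from 0.168 to 0.508 TPM on vehicle to 26.6 to 37.3 TPM with T0901317, while Timd4 stayed at or under 0.730 TPM. Whether the cells that carry class II changed with these markers was not tested.

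The ratio of H2-Ab1 to Csf1r was chosen after the values were seen. In F/F it was 2.13, 1.70, 1.59 and 1.44 on vehicle and 5.96, 4.66, 4.12 and 4.20 on T0901317. In W/F it was 3.48, 2.31, 2.11 and 2.41 on vehicle and 3.99, 7.36, 3.33 and 2.92 on T0901317. The F/F groups did not overlap and the W/F groups did. Against Ptprc, the F/F ratios were 14.3 to 24.1 on vehicle and 47.9 to 72.7 on T0901317. The ratio of Ciita to Csf1r in F/F was 0.0290 to 0.0371 on vehicle and 0.0642 to 0.127 on T0901317. Cd86 to Csf1r overlapped in F/F, at 0.0322 to 0.0792 on vehicle and 0.0621 to 0.0763 on T0901317. In W/F it did not overlap, at 0.0502 to 0.0555 on vehicle and 0.115 to 0.149 on T0901317. A ratio shows unequal change and not which gene changed.

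**Figure D4:**
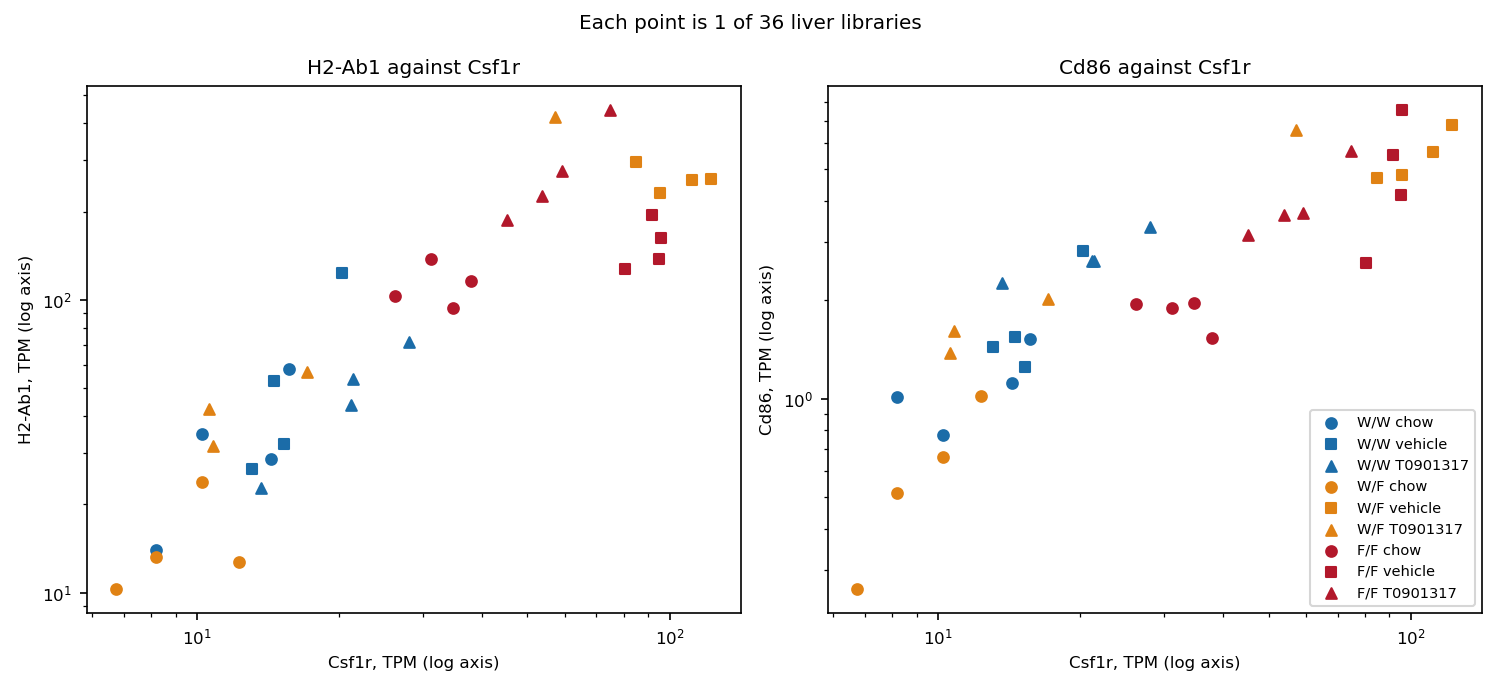
H2-Ab1 and Cd86 against Csf1r in TPM (log axes) in 36 libraries. F/F libraries on T0901317 lie to the left of those on vehicle, while their H2-Ab1 TPM overlap (187 to 445 against 128 to 195). The F/F ratios of H2-Ab1 to Csf1r are 4.12 to 5.96 against 1.44 to 2.13, whereas for Cd86 the F/F ratios overlap.

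The proportions among the members also differed between F/F on vehicle and some of the other groups. H2-Ab1 to Cd74 was 0.186 to 0.272 in F/F on vehicle and 0.291 to 0.340 in W/F on vehicle, without overlap. In F/F on T0901317 it was 0.271 to 0.308, which overlapped F/F on vehicle. H2-DMb1 to H2-Ab1 was 0.129 to 0.191 in F/F on vehicle and 0.0868 to 0.111 in F/F on T0901317. In W/F on vehicle that ratio was 0.133 to 0.141, within the range of F/F on vehicle. F/F livers on vehicle thus held less H2-Ab1 per Cd74 than W/F livers on vehicle, and more H2-DMb1 per H2-Ab1 than F/F livers on T0901317. These ratios were chosen after the values were seen.

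The genes of antigen processing were called with the members in W/F. Of 10 tested genes of class II processing and turnover, 9 were called higher in W/F than in W/W on vehicle, and 9 were called lower with T0901317 in W/F, where 61.6% of all genes were called higher and 59.3% lower. On rescaled TPM the counts were 9 and 9 again, against 27.6% and 27.1%. Ctss rose by 4.75 (SE 0.42, adjusted p 7.65e-11) in W/F against W/W, and Lgmn, an endosomal legumain, and Ifi30, the thiol reductase that unfolds antigen, by 3.00 and 2.61. All 6 tested genes of the costimulation list, which holds Cd80 and Cd40, were called higher in W/F than in W/W on vehicle and lower with T0901317 in W/F. On rescaled TPM 6 were higher and 5 lower. In F/F with T0901317, 6 of the 10 processing genes and 2 of the 6 costimulation genes were called lower, where 31.2% of all genes were. On rescaled TPM 3 and 0 were, against 7.98%. The 2 of 6 costimulation genes are near the share of all genes.

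The enhanceosome genes encode RFX, NF-Y and CREB subunits. All 7 were called higher in W/F than in W/W on vehicle, where 61.6% of all genes were called higher. Their median was 0.51 where all genes had 0.52. On rescaled TPM 3 were called higher and 1 lower, against 27.6% and 25.5% of all genes. Nfya differed by 1.26 and Rfx5 by 0.87. Of the class II genes that are no members, H2-Oa and H2-Ob, the chains of H2-O, were at or under 2.60 and 2.02 TPM in all libraries, and neither was called in W/F against W/W on vehicle (0.36 and 0.21).

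The class I pathway served as a comparison. Of its 10 genes 6 were called higher in W/F than in W/W on vehicle, with a median of 0.58, and 4 were called lower with T0901317 in W/F. These counts are at or below the 61.6% of all genes called higher and the 59.3% called lower. On rescaled TPM 1 was called higher and 2 lower in the first comparison, against 27.6% and 25.5% of all genes. H2-K1, a classical class I heavy chain, differed by -0.16 (adjusted p 0.371) and Nlrc5, the class I transactivator, by 0.58 (adjusted p 0.0472), which on rescaled TPM was 0.01 (adjusted p 0.991). Of 7 tested interferon-gamma axis genes 5 were called higher in that comparison, near the 61.6% of all genes, and 4 on rescaled TPM, against 27.6%, and Ifng itself was under the filter. Irf1 differed by 0.77 (adjusted p 0.0161), and on rescaled TPM by 0.13 (adjusted p 0.706).

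Markers of some class II-bearing cells were called with the members, while those of B cells and Kupffer cells were called in both directions. The summed level of the 9 monocyte and macrophage markers was 131 to 282 TPM in W/W on vehicle, 2579 to 3418 in W/F and 3210 to 4168 in F/F, and 8 of 9 were called higher in W/F than in W/W. Lyz2 made up most of this sum in W/F on vehicle, at a mean of 2414 TPM. With T0901317 the sum was 135 to 173 TPM in W/F libraries other than replicate 2, which had 888. The summed 10 dendritic cell markers were 6.39 to 13.6 TPM in W/W and a median of 69.3 and a highest of 83.7 TPM in W/F on vehicle, most of it Itgax, at 42.4 to 63.1 TPM, which macrophages also express. Of defining dendritic markers Flt3 was at or under 1.37 TPM and Xcr1 at or under 0.688 TPM in all libraries. The 8 B cell markers summed to 10.5 to 37.6 TPM in W/W and 15.7 to 24.9 in W/F on vehicle, and Ms4a1, a defining B cell marker, was at or under 0.372 TPM in all libraries. Ms4a1 was singled out after its values were seen. Cd3e, of T cells, was at or under 1.13 TPM. In W/F against W/W on vehicle, 9 of 9 tested dendritic cell, 5 of 5 pan-leukocyte, 3 of 6 T cell and 5 of 5 cholangiocyte markers were called higher, where 61.6% of all genes were. On rescaled TPM these counts were 5, 5, 1 and 5, against 27.6% of all genes. As deposited, 2 of 5 B cell markers were called higher and 1 lower, 1 of 7 Kupffer cell markers higher and 2 lower, 1 of 6 endothelial markers higher and 2 lower, and 5 of 7 hepatocyte markers lower, where 6.83% of all genes were called lower. On rescaled TPM 1 B cell marker was called higher and 2 lower, 1 Kupffer cell marker higher and 4 lower, and 5 endothelial and 7 hepatocyte markers lower, against 25.5% of all genes. The part of each cell type in the members' levels was not tested.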

How the data were processed

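Polyadenylated liver RNA was sequenced in 36 samples, 4 in each of 9 groups, which were taken from the labels. Per the submitters' processing notes, Trimmomatic 0.36, STAR 2.5.2b and featureCounts of Subread 1.5.2 were used with GRCm38 (mm10). The authors deposited TPM, per the column names, and each mapped to 1 sample. The strand setting and annotation release are not given in the sources used here. Depth was recovered from TPM between 0.02 and 0.4 and exon lengths of GENCODE M21. Of genes under 20 reads, 93.7% to 95.7% lay within 0.1 of a whole read.

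The 16638 genes that reached 1 TPM in 4 or more libraries were fitted as log2(TPM + 1) with limma 3.58.1 in R 4.3.3, with 1 mean per group, a mean-variance trend and two-sided tests over 19 contrasts, adjusted by Benjamini-Hochberg within each. The script was tested on simulated data. Rescaling used median ratios over 14786 genes. Alternatives were a pseudocount of 0.1, filters of 5 TPM or none, rescaling, a replicate block, quality weights, fits of only the groups compared and leaving out each library, and, added after seeing the data, rescaling without W/F T0901317 replicate 2 or W/W vehicle replicate 4. The share of all genes called was recorded for the main and the rescaled fit and not for the other alternatives. The members and 15 further lists were chosen with earlier results of these data known. All members were named. Other genes were named by a rule (the largest called changes without overlap and a mean of 5 TPM or more in the higher of the groups, and a short preset list) or as said. Itgam has 2 entries, of which 1 was used. Values of some listed genes are not reported here.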

Additional observations from a re-analysis of the deposited data

Results flagged for a closer look

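In each group of 4 libraries, the gap between the most extreme library and its nearest neighbour was compared with the group's range, and a share above Dixon's critical value for 4 samples was noted. This was done for 72 groups of values, and chance gives about 5% of them. Replicate 2 of W/F on T0901317 exceeded it in all 8 genes, with 341 TPM of H2-Aa, 421 of H2-Ab1, 666 of H2-Eb1, 50.5 of H2-DMa, 44.3 of H2-DMb1, 1372 of Cd74, 10.9 of Ciita and 6.58 of Cd86. These are 8 genes of 1 library and not 8 independent events. Replicate 1 of W/F on vehicle exceeded it in H2-Eb1 (463 TPM) and Cd74 (975 TPM). Replicate 1 of F/F on vehicle did in H2-DMb1 (37.3 TPM) and Cd74 (1053 TPM). Single libraries also stood apart in H2-Aa (21.1 TPM, W/F chow replicate 3), Ciita (2.69 TPM, W/W vehicle replicate 4) and Cd86 (1.53 TPM, the lowest, F/F chow replicate 3).

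Responses that differed between W/F and W/W by the interaction term of the limma fit were those to T0901317 in H2-Aa (-2.04), H2-DMb1 (-2.44) and Cd86 (-1.35) on the log2 scale. The response to the MASH diet differed in H2-Aa (3.45), H2-Ab1 (3.42), H2-Eb1 (3.33), H2-DMa (2.22), H2-DMb1 (3.47), Cd74 (3.40), Ciita (1.81) and Cd86 (1.65). For that term 49.5% of all genes were called higher.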

How the results depend on the processing

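A pseudocount of 0.1, filters of 5 TPM or none and the replicate block kept all 19 counts of members called within 1.5 times. The labels' numbers share only a number: same-numbered libraries correlated at a median r of 0.013 after group means were removed, 18 of 144 pairs were over 0.1, and 11 of 36 libraries correlated best with their own number. With the replicate block the count for T0901317 in W/F was 8, and no member's call changed. On rescaled TPM the counts were 3 for T0901317 in W/F, 1 for the diet in F/F, 4 on chow and 2 on vehicle when F/F was compared with W/W, and 4 for F/F against W/F on T0901317. Fitting only the groups compared gave 2 for T0901317 in W/F, 3 for T0901317 in F/F, 5 for the diet in F/F, and 4 and 1 for F/F against W/F on vehicle and T0901317. Shares of all genes called were not recorded for these fits. Quality weights gave 8 for the T0901317 response of W/F minus W/W, as did rescaling without W/F T0901317 replicate 2. Leaving out 1 library gave 2 to 8 for that response and 1 to 2 for the diet in F/F (1 without F/F chow replicate 2 or F/F vehicle replicate 1). The causes were not tested. No called value changed sign. Low reads limit Cd86, H2-DMb1, H2-DMa and Ciita.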
